A study of Mus musculus with 188 samples.

Results

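The major histocompatibility complex class II genes of the mouse were followed across a panel of inbred strains, in the aorta. They were 6 genes, H2-Ea, H2-Aa, H2-Ab1, H2-Eb1, H2-DMa and Cd74, taken by symbol and measured by 9 probe sets of 22327 tested (6 of 11725 named genes). H2-Ea had 3 of them (1422892_s_at, 1422891_at and 1426202_at), H2-Ab1 had 2 (1450648_s_at and 1425477_x_at), and the others 1 each. Where no probe set is named, the brightest is meant. Total RNA of whole aorta had been hybridised to 188 arrays covering 94 strains: 28 inbred strains (55 arrays) and the recombinant inbred families AXB/BXA (28 strains, 59 arrays), BXD (28 strains, 53 arrays) and BXH (10 strains, 21 arrays). All animals were wild-type males, given chow and no treatment, and 16 weeks old. The AXB/BXA family descends from C57BL/6J and A/J, the BXD family from C57BL/6J and DBA/2J, and the BXH family from C57BL/6J and C3H/HeJ. BXD24/TyJ-Cep290<rd16>/J and BXD29-Tlr4<lps-2J>/J carry the alleles in their names. Between 1 and 4 arrays were made of a strain, mostly 2 (79 strains), and nothing in the labels tells if the replicates were different mice. The p-values of tests on arrays therefore measure only the spread between arrays, which may be technical, while tests on strain means use the spread between strains. Values are the deposited log2 RMA levels, in which a difference of 1 is a doubling of the fitted signal.

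Class II molecules sit on antigen-presenting cells such as dendritic cells, macrophages and B cells and show peptides to CD4 T cells. Each is a pair of an alpha and a beta chain. H2-Aa and H2-Ab1 encode the chains of the I-A molecule, and H2-Ea and H2-Eb1 those of the I-E molecule. Cd74 is the invariant chain, which fills the peptide groove during transport, and H2-DMa is a chain of H2-DM, which exchanges the invariant chain fragment for peptide. The transactivator Ciita and the factors bound to the X and Y boxes of the promoters switch these genes on together. Mice of several H2 haplotypes (b, s, q and others) are known to lack the E alpha chain, and the RefSeq table of the C57BL/6J reference lists H2-Ea as a transcribed pseudogene.

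The reference promoters were inspected for the Y box, the site of the factor NF-Y, since the class II genes below moved together. RefSeq promoter windows of GRCm38.p6, running from 250 bases before to 50 bases after the start site, were at hand for 3 of the 6 genes. The 150 bases before the start are shown for H2-Aa and H2-Eb1, which hold the letters TGATTGG (capitals).
H2-Aa, chr17:34287824-34287973, minus strand: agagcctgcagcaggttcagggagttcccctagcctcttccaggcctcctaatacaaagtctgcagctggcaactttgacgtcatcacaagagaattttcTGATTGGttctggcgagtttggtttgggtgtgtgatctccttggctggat
H2-Eb1, chr17:34305717-34305866, plus strand: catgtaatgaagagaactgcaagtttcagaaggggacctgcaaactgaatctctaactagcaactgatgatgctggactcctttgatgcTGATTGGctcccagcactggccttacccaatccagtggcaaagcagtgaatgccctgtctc
The match began 50 bases before the start of H2-Aa, at position -50, and at position -61 of H2-Eb1. On either strand, 7.82% of the 32851 windows of the table held these letters. A longer X box motif, which 1.16% of windows matched, had 0 matches in the members' windows, and the 2 windows of H2-DMa matched neither motif. A match is a description of letters only, and these windows are those of C57BL/6J, not of the other strains.

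Arrays of 3 strains did not resemble each other, and some of the results that rest on them are given with and without them. Over 47 probe sets that differed strongly between strains (intraclass correlation above 0.8, H2 chromosome left out), the lowest correlation between arrays of a strain was -0.231 in BXA16/PgnJ, 0.304 in BXD19/TyJ and 0.339 in SJL/J. It was at least 0.713 in the other strains with 2 or more arrays, with a median of 0.936 over the 85 strains. Replicates 1 and 2 of BXD19/TyJ correlated with each other at 0.972 and, at best, with a DBA/2J array at 0.937, while replicates 3 and 4 correlated at 0.923. SJL/J replicate 1 correlated at 0.979 with a KK/HlJ array. Both BXD32/TyJ arrays, whose label carries an unexplained suffix, matched C57BL/6J best (0.904 and 0.882) and were left out of all comparisons. The aorta markers fitted the label: Acta2, smooth muscle actin, had a mean of 12.42 and Myl9, the smooth muscle myosin light chain, one of 10.29. Other tissue was present too. Thymocyte or squamous epithelium scores, the mean centred log2 level of a marker list, were above 1 in 68 of the arrays.

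All 6 class II genes differed between strains, and 4 of them were among the brighter genes of the aorta. Averaged over arrays, Cd74 had a level of 9.50, above 95.3% of probe sets, H2-Ab1 8.23, H2-Eb1 8.18 and H2-Aa 7.75, the last above 84.4%. H2-DMa, at 5.41, and H2-Ea, at 5.15, were nearer the middle, the latter above 54.9% of probe sets. A level is a probe set's own and does not rank genes by transcript number. Over the 84 strains with 2 or more arrays (177 arrays), 8 of the 9 probe sets differed between strains, where 46.5% of all probe sets did (limma moderated F test, Benjamini-Hochberg adjusted p under 0.05 over all probe sets). The remaining probe set, 1426202_at of H2-Ea, was dim in every strain, with strain means between 2.81 and 3.18 (adjusted p = 0.836 in the limma test). The second probe set of H2-Ab1, 1425477_x_at, had a mean of 4.45, and its suffix marks probes that can match other sequences.

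The share of variance lying between strains was highest for H2-Ea. The intraclass correlation, the share of variance between strains rather than between arrays of a strain, was 0.816 for H2-Ea probe set 1422892_s_at (95% interval 0.734 to 0.876). It was 0.656 for H2-Ea probe set 1422891_at, 0.488 for H2-Eb1, 0.443 for H2-Ab1 and 0.403 for H2-Aa. Cd74 had 0.315 and H2-DMa 0.303. The median over all probe sets was 0.182. Without the 3 strains of discordant arrays the values were 0.941 for H2-Ea, 0.481 for H2-Eb1 and 0.322 for Cd74. The spread between strains of H2-Ea was 2.44 (SD) against 1.16 between arrays of a strain (2.55 and 0.64 without the 3 strains), while Cd74 spread more between arrays (0.76) than between strains (0.52).

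H2-Ea, the E alpha chain, was near the lowest values of the arrays in most strains of a known null haplotype and very high in the strains of haplotype d. The brighter probe set 1422892_s_at stood at strain means of 2.94 to 3.24 in the 5 strains of haplotype b. The 3 arrays of C57BL/6J read 3.10, 3.21 and 2.96. SJL/J (haplotype s), whose arrays disagreed over other genes, had a mean of 2.85, and NOD/ShiLtJ (g7) one of 3.09. The 4 strains of haplotype d read 9.47 in DBA/2J, 9.65 in BALB/cJ, 9.95 in LG/J and 10.86 in SEA/GnJ, with every array of them above every array of haplotype b. SM/J, of haplotype v, was as high (8.87 and 10.22 in its arrays).

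The other haplotypes lay between. The 6 strains of haplotype k ran from 3.81 in CE/J to 5.91 in C3H/HeJ, above all strains of haplotype b and below all of haplotype d. The lowest array of haplotype k read 3.63 (CE/J) and the highest of haplotype b 3.31 (BTBR T<+> tf/J), so the arrays of k and b did not overlap either. A/J, of haplotype a, had arrays at 4.67 and 3.60. RIIIS/J (r) had a mean of 4.69, PL/J (u) 5.74 and NZW/LacJ (z) 5.90. The 3 strains of haplotype q, counted as null, were spread: FVB/NJ at 3.37, BUB/BnJ at 4.31 from 1 array, and SWR/J at 5.19. The SWR/J arrays read 6.86 and 3.52. The brighter of them also had the higher thymocyte score (3.95 against 0.40) and Cd74 level (11.72 against 8.81), and the part of other tissue in its H2-Ea value was not tested.

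**Figure D1:**
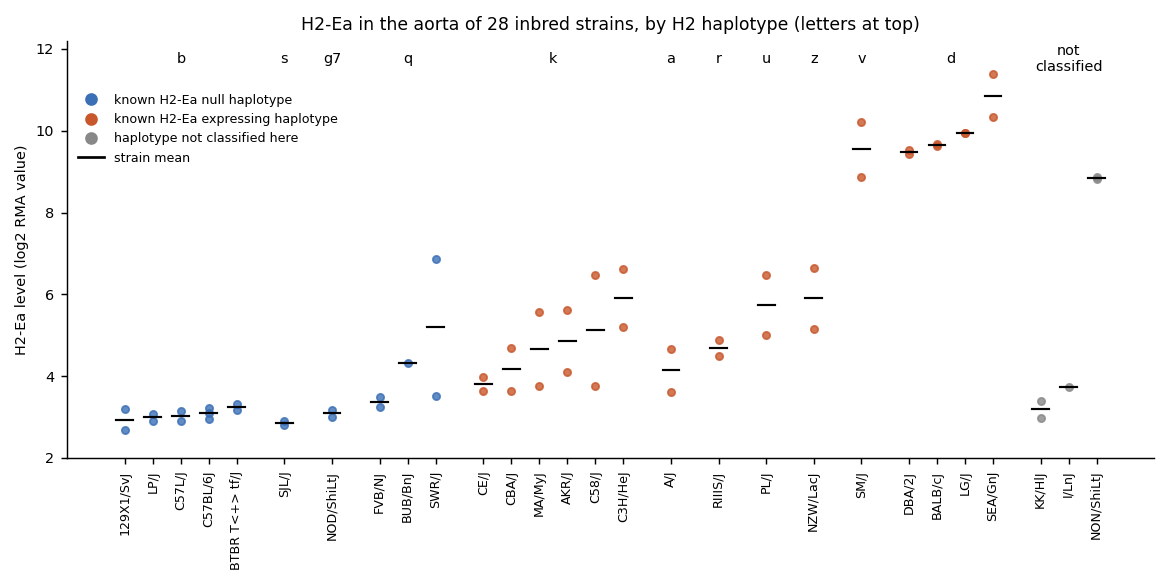
H2-Ea level (log2 RMA value) in each array of the 28 inbred strains, grouped by H2 haplotype (letters at top) and coloured by whether the haplotype is known to be H2-Ea null. Bars are strain means; haplotype d strains lie between 9.47 and 10.86 and haplotype b strains between 2.94 and 3.24.

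Haplotypes are textbook knowledge of these strains and are not in the labels. Averaged over strains, H2-Ea stood at 6.56 ± 2.53 (SD, n = 15 strains) in expressing haplotypes and 3.41 ± 0.75 (n = 10) in null ones, a difference of 3.15 (95% interval 1.51 to 4.79). A permutation test over strains, SJL/J included, gave p = 0.00087 (two-sided, 100000 resamples). The limma contrast over all probe sets called 0 of them (0%), H2-Ea included (adjusted p = 0.721), while 1351 had an unadjusted p under 0.05, among them 2 of the 9 members. With arrays entered one by one and strain as a random block, limma called 12 probe sets, and both brighter H2-Ea probe sets passed (adjusted p = 0.0177 and 0.0438). That fit used 1 correlation between arrays of a strain, shared by all probe sets. The intraclass correlations of these H2-Ea probe sets (0.816 and 0.656) were far above the median of 0.182. The fit may thus count their arrays as too independent, and these p-values may be too small. The groups overlapped: 8 of the 15 expressing strains were above the highest null strain, SWR/J. Probe set 1422891_at spanned less, 5.70 ± 0.83 against 4.65 ± 0.26, a difference of 1.05 (permutation p = 0.00084), with 11 of 15 expressing strains above the highest null strain.

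Among the 4 haplotypes held by 3 or more strains (b, d, k and q; 18 strains), 3 of the 9 probe sets differed, against 0.0806% of all probe sets (18 of them): both brighter H2-Ea probe sets (adjusted p = 2.25e-07 and 0.00152 in the limma F test) and H2-Eb1 (adjusted p = 0.00252). Pairs of haplotypes were then compared in the same fit, a step added after the values were seen. In probe set 1422892_s_at, haplotype d exceeded b by 6.92 (SE 0.40), k by 5.23 (SE 0.38) and q by 5.69 (SE 0.45), each with an adjusted p of 5.82e-06 or less in limma. Of the 9 member probe sets 2 were called between d and b (background 0.0224%), 2 between d and k (0.0627%) and 3 between d and q (0.0269%). Haplotypes k and b differed by 1.70 (SE 0.36, adjusted p = 0.113 in limma), which did not pass, and 0 of 9 members were called there, with 5 at an unadjusted p under 0.05 and a background of 0.0314%. Strains that share a haplotype can also share ancestry elsewhere in the genome. Probe sequences were not used here, so a strain's transcript level and a strain difference in the sequence under the probes cannot be told apart.

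Of the parents of the recombinant inbred families, DBA/2J differed from C57BL/6J in H2-Ea. The level in DBA/2J (9.52 and 9.43) exceeded that of C57BL/6J by 6.38 (SE 1.04, adjusted p = 1.68e-05 in limma), the only one of the 9 member probe sets called in that contrast (background 0.524%). C3H/HeJ read 5.21 and 6.62 and exceeded C57BL/6J by 2.82 (SE 1.04), with an adjusted p of 0.188 in limma, so 0 of 9 members were called, against 1.25% of probe sets and with 2 members at an unadjusted p under 0.05. Without the 3 strains of discordant arrays, the same difference passed (adjusted p = 0.00117). A/J exceeded C57BL/6J by 1.05 (SE 1.04, adjusted p = 0.769), with 0 of 9 members called, 0 at an unadjusted p under 0.05 and a background of 0.645%.

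Across the BXD strains H2-Ea fell into a low and a high set. Leaving out BXD19/TyJ, 9 strains had means of 2.82 to 3.15, at the level of C57BL/6J, and 17 had means of 8.60 to 10.62, around the level of DBA/2J, with a gap of 5.45 between them. The lowest was BXD2/TyJ (2.82 and 2.83 in its arrays) and the highest BXD9/TyJ (10.34 and 10.90). No BXD strain mean lay inside the gap except that of BXD19/TyJ (6.43), whose replicates 1 and 2 read 10.92 and 9.10 and replicates 3 and 4 read 2.89 and 2.81. That strain's arrays are those that disagreed over other genes. Both H2-Ea probe sets 1422892_s_at and 1422891_at segregated among BXD strains (adjusted p = 1.95e-05 and 0.00538 in the limma F test). Without BXD19/TyJ the adjusted p of 1422892_s_at was 9.53e-16 in the limma F test.

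The other families spanned a narrower range. In BXH, 6 strains had H2-Ea means of 3.06 to 3.45 and 4 had means of 4.32 to 4.77, a gap of 0.88 that the F test did not separate from the spread between arrays (adjusted p = 0.454 in limma). None reached the mean of C3H/HeJ, 5.91. In AXB/BXA, BXA16/PgnJ aside, 26 strains had means from 2.92 in AXB19a/PgnJ to 5.28 in AXB2/PgnJ, with no gap above 0.44 between neighbours. AXB12/PgnJ stood 1.22 above them at 6.51, with arrays at 6.59 and 6.42. BXA16/PgnJ lay at 7.79, from arrays at 10.93, 9.47 and 2.96, and those arrays also disagreed over other genes. H2-Ea did not pass in AXB/BXA with that strain (adjusted p = 0.0845) and passed without it (adjusted p = 7.26e-05, limma).

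**Figure D2:**
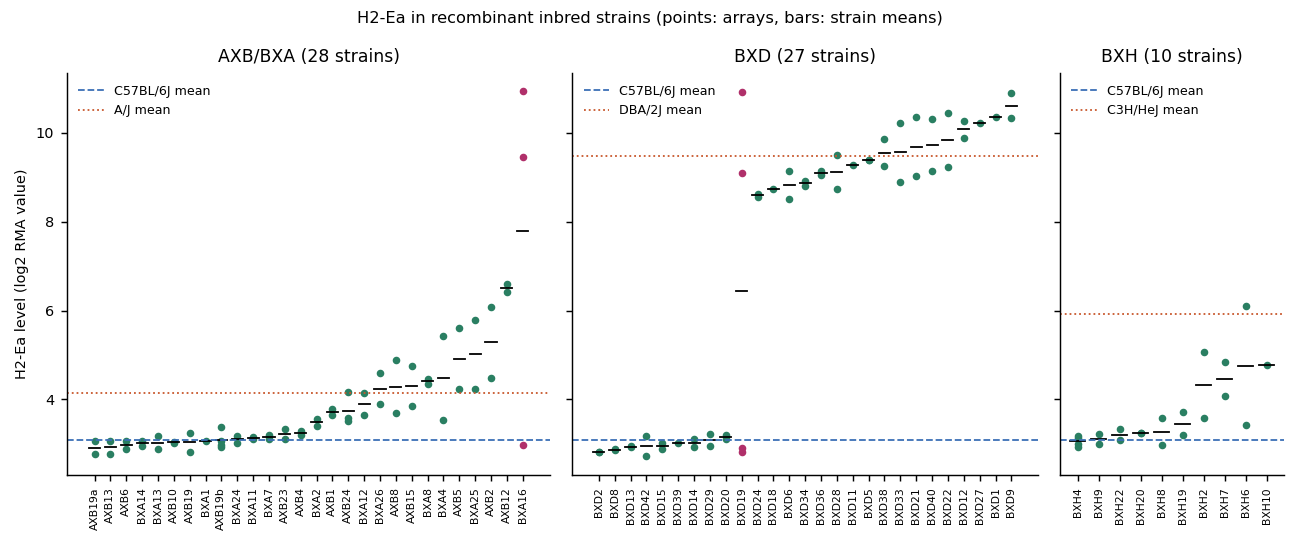
H2-Ea level (log2 RMA value) in each array of the AXB/BXA, BXD and BXH strains, ordered by strain mean (bars); dashed and dotted lines are the parental means. The BXD strains split into 9 at 2.82 to 3.15 and 17 at 8.60 to 10.62; arrays of BXA16/PgnJ and BXD19/TyJ, which disagreed over other genes, are in magenta.

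By strain mean, H2-Eb1, the E beta chain, was lower in haplotype q than in all other strains, null or not for H2-Ea. The arrays of FVB/NJ read 4.60 and 4.37, that of BUB/BnJ 4.87, and those of SWR/J 5.81 and 4.54. These are the 3 lowest strain means of all 93 (4.49, 4.87 and 5.17), below the 6.21 of the next strain, AXB1/PgnJ. Haplotype q stood at 4.85 ± 0.34 (SD, n = 3 strains), b at 8.66 ± 1.06 (n = 5), d at 9.05 ± 0.53 (n = 4) and k at 7.73 ± 0.52 (n = 6). The deficit of q was 3.82 against b (SE 0.48, adjusted p = 0.00732 in limma), 4.21 against d (SE 0.51, adjusted p = 0.00146) and 2.89 against k (SE 0.47, adjusted p = 0.0337). H2-Eb1 was the only one of the 9 probe sets called between q and b (background 0.0224%) and between k and q (0.0448%). The highest strain was SJL/J, of an H2-Ea null haplotype, at 10.15 (9.92 and 10.37 in its arrays, which disagreed over other genes), followed by BXD2/TyJ at 10.02.

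The same q strains were not low in the other members as a group. In H2-Aa, BUB/BnJ (9.42) and SWR/J (9.36) came just after the highest strain of all, SEA/GnJ (9.54), while FVB/NJ was among the 3 lowest strains in H2-DMa (3.77 and 4.23 in its arrays) and Cd74 (8.52 and 7.85). H2-Aa, H2-Ab1, H2-DMa and Cd74 did not pass among haplotypes b, d, k and q (adjusted p = 0.423, 0.351, 0.378 and 0.805 in limma). The strain ranges overlapped for each pair of haplotypes except d and k in H2-Ab1 (8.36 to 9.80 against 7.07 to 8.31). Haplotype d exceeded k in H2-Ab1 by 1.61 (SE 0.54, adjusted p = 0.546 in limma). The excess was 1.13 in H2-Aa, 1.36 in H2-DMa and 0.64 in Cd74. In that pair 8 of the 9 member probe sets had an unadjusted p under 0.05, where 8.58% of all probe sets did. The median macrophage score was 0.50 in the d strains and 0.08 in the k strains, and its part in these differences was not tested. The median B cell score was -0.29 in the q strains and -0.06 in the b strains, and the macrophage score -0.19 and -0.07. With macrophage and B cell scores as covariates, H2-Eb1 still differed among the 4 haplotypes (adjusted p = 0.000807 in limma).

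**Figure D3:**
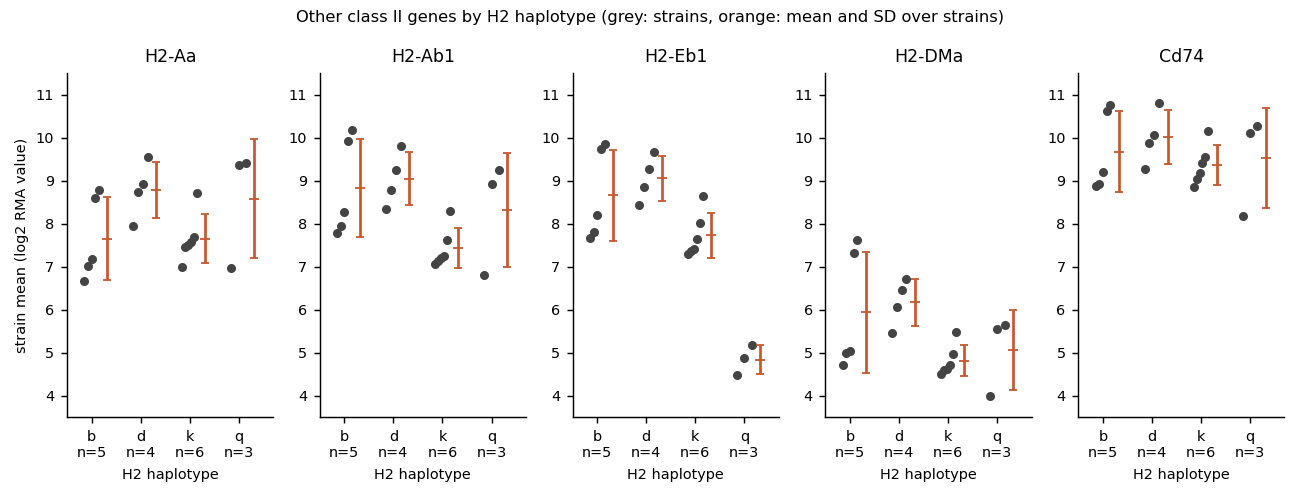
Strain means (log2 RMA value, grey points) of the other 5 class II genes in inbred strains of H2 haplotypes b, d, k and q; orange marks are the mean and SD over strains. H2-Eb1 stands at 4.85 in haplotype q and between 7.73 and 9.05 in the others, while the haplotypes overlap in the other genes, apart from d and k in H2-Ab1.

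H2-Aa, the A alpha chain, had 1 strain far below the others. BXD20/TyJ read 4.33 and 3.37, a mean of 3.85, the lowest of 93 strains and 2.30 below the next BXD strain, BXD29-Tlr4<lps-2J>/J at 6.15. The next lowest strain of any family was AXB4/PgnJ at 5.40. The partner chain H2-Ab1 stood at 8.74 and 7.85 in the same BXD20/TyJ arrays, H2-Eb1 at 8.46 and 7.68 and Cd74 at 9.55 and 8.76, all inside the range of the family. Its arrays correlated with each other at 0.963 over the strain-specific probe sets. Replicate 1 had a thymocyte score of 2.51 and replicate 2 one of -0.68, and H2-Aa was low in both. The mean B cell score of BXD20/TyJ, -1.05, was the lowest of the 93 strains, and its part in the H2-Aa level was not tested. H2-Aa segregated among BXD strains (adjusted p = 0.000486 in limma), and also without BXD20/TyJ (adjusted p = 0.0345).

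**Figure D4:**
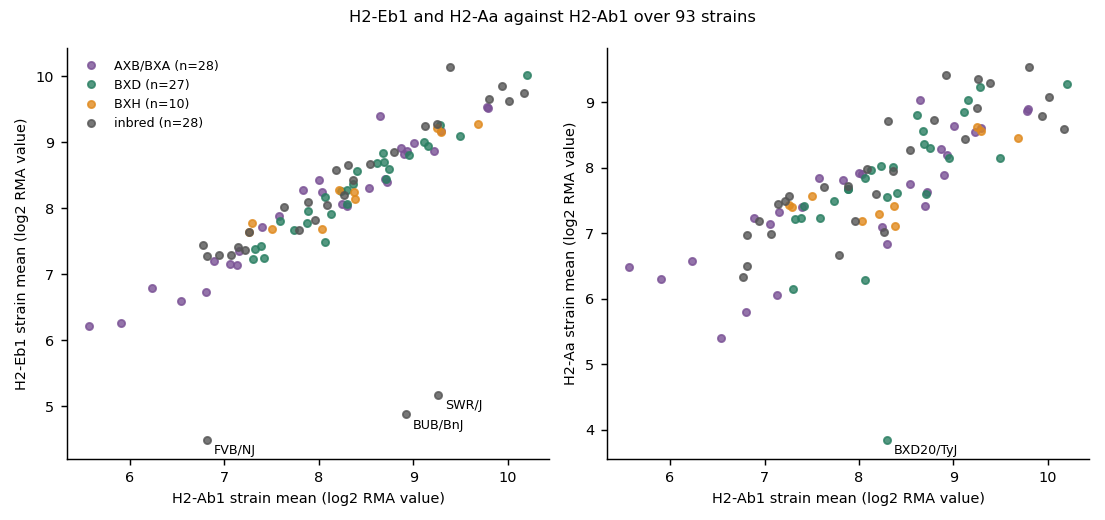
Strain means (log2 RMA value) of H2-Eb1 (left) and H2-Aa (right) against H2-Ab1 over 93 strains, coloured by family. FVB/NJ, BUB/BnJ and SWR/J lie below the rest in H2-Eb1 (4.49, 4.87 and 5.17) and BXD20/TyJ in H2-Aa (3.85).

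H2-Ab1, H2-DMa and Cd74 varied more evenly over the 93 strains. H2-Ab1, the A beta chain, ran from 5.56 in AXB1/PgnJ (5.21 and 5.92) to 10.21 in BXD2/TyJ (10.65 and 9.77). It was the only member called among AXB/BXA strains (adjusted p = 0.0241 in limma), 1 of 9 probe sets against 3.81% of all, with 5 members at an unadjusted p under 0.05. That call was lost without AXB1/PgnJ (adjusted p = 0.0886) or with replicate 2 or 3 of AXB24/PgnJ left out (adjusted p = 0.0511 and 0.0512). H2-Eb1 (adjusted p = 0.0678) passed when AXB2/PgnJ, AXB6/PgnJ, AXB10/PgnJ, AXB23/PgnJ or BXA8/PgnJ was left out, with an adjusted p of 0.0203 to 0.0425 in limma, and Cd74 passed without AXB6/PgnJ (adjusted p = 0.0482). H2-DMa ran from 3.94 in AXB4/PgnJ to 7.63 in BTBR T<+> tf/J, and Cd74 from 7.71 in AXB4/PgnJ (7.55 and 7.86) to 10.93 in BXD2/TyJ (11.13 and 10.73). AXB4/PgnJ was thus the lowest strain for H2-DMa and Cd74 and the second lowest for H2-Aa, and BXD2/TyJ the highest for H2-Ab1 and Cd74. In H2-DMa, BXD2/TyJ stood 1.32 above the next BXD strain. It also had the highest B cell score (1.84) and macrophage score (0.96) of the 93 strains, and its replicate 1 had a squamous score of 2.60. The part of these scores in its levels was not tested.

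Of the 9 probe sets, 6 differed between BXD strains (background 15.1%) and 0 between BXH strains (background 1.26%, with 0 members at an unadjusted p under 0.05). The BXD calls were those of H2-Ea (2 probe sets), H2-Aa, H2-Eb1 (adjusted p = 0.0319), H2-DMa (0.0121) and Cd74 (0.0404 in limma). Without BXD2/TyJ 3 remained called, and H2-Eb1, H2-DMa and Cd74 did not pass (adjusted p = 0.0971, 0.113 and 0.111). Cd74 also lost its call without BXD6/TyJ, BXD9/TyJ, BXD24/TyJ-Cep290<rd16>/J, BXD29-Tlr4<lps-2J>/J, BXD34/TyJ or replicate 4 of BXD19/TyJ (adjusted p = 0.0539 to 0.0744 in limma), and H2-Eb1 without BXD6/TyJ (0.0561). H2-Ab1 (adjusted p = 0.0567) passed without BXD19/TyJ (0.0357), BXD21/TyJ (0.0460), BXD33/TyJ (0.0259) or BXD42/TyJ (0.0468 in limma). It also passed with brighter probe sets only (adjusted p = 0.0359 in limma). Once arrays with a thymocyte or squamous score above 1 were dropped, 1 of 9 was called in BXD (H2-Ea) and 0 in AXB/BXA, in fits with fewer arrays. Of the BXD calls lost there, F was higher for H2-Eb1 (3.94 against 3.05), H2-DMa (4.09 against 3.78) and Cd74 (4.22 against 2.87). It was lower for H2-Aa (4.51 against 6.36) and H2-Ea probe set 1422891_at (2.35 against 4.40). For H2-Ab1 in AXB/BXA it was higher. F values of fits with different numbers of arrays are not directly comparable, and the cause of the lost calls was not tested.

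The other genes of the class II pathway mostly differed between strains as well. Of 25 measured pathway genes 19 passed the strain test, beside 14 of 16 macrophage, 9 of 11 B cell, 4 of 9 dendritic cell, 3 of 10 thymocyte, 6 of 6 smooth muscle, 0 of 5 thymic epithelium and 0 of 11 squamous epithelium genes, where 46.5% of all probe sets did. The median intraclass correlation was 0.244 for the pathway, 0.347 for macrophage and 0.383 for B cell genes. The highest of the pathway were Ifi30 (0.485), the lysosomal thiol reductase that unfolds antigens, Nfyc (0.438), a subunit of NF-Y, Cd86 (0.371), a costimulator of T cells, and Ctsl (0.355), a lysosomal protease. Ciita, the transactivator, had 0.201 and passed (adjusted p = 0.0451 in limma). Its probe set was dim, with a mean of 3.45, above 21.7% of probe sets.

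Among BXD strains 11 of 25 pathway genes and 9 of 11 B cell genes passed, where 15.1% of all probe sets did. Among AXB/BXA strains 2 of 25 and 1 of 11 passed (3.81% of all), and among BXH strains (1.26% of all) 0 of both in limma (3 and 3 at an unadjusted p under 0.05). The B cell gene in AXB/BXA was Ms4a1, the surface antigen CD20. The 2 in AXB/BXA were Ctss (adjusted p = 0.0025), the protease that trims the invariant chain, and Nfyc (adjusted p = 0.0181, both limma). In BXD the smallest adjusted p was that of Ifi30 (0.000288), followed by the dim Ciita (0.00336) and H2-DMb2 (0.0064), a partner chain of H2-DMa. In the parental contrasts limma called 0 of 25 pathway genes, with 0, 0 and 5 at an unadjusted p under 0.05 for A/J, DBA/2J and C3H/HeJ. In DBA/2J against C57BL/6J their median difference was 0.15, beside 0.00 over all probe sets. In C3H/HeJ it was 0.42, with a median of 1.74 for the B cell genes, of which 1 of 11 passed, Ms4a1 (adjusted p = 0.0312 in limma).

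The 5 members other than H2-Ea rose and fell together from array to array. Over the 78 strains with 2 arrays, the difference between the arrays of a strain correlated at 0.873 to 0.978 for the 10 pairs of H2-Aa, H2-Ab1, H2-Eb1, H2-DMa and Cd74, highest for H2-Ab1 with Cd74. H2-Ea correlated with them at 0.461 to 0.629, but it was near the lowest array values in both arrays of many strains (2.82 and 2.83 in BXD2/TyJ), where a difference cannot follow the other genes, so its values are not comparable with theirs. Over the 93 strain means the 10 pairs correlated at 0.556 to 0.903, and at least at 0.743 without the 3 q strains. In inbred strains H2-Aa with H2-Eb1 was lowest (0.332), and no pair was under 0.856 without the q strains. In BXD strains the lowest pair was H2-Aa with H2-Ab1 (0.581), and no pair was under 0.790 without BXD20/TyJ. Arrays of one normalization share any technical shift, so these values are descriptions.

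Other genes with a like pattern were chosen as the 5 highest correlations of each member. Over 93 strain means, Cd74 was most like H2-DMb2 (0.939), Cd52 (0.909), a surface glycoprotein of lymphocytes, H2-DMa, H2-Ab1 and Ptpn6 (0.894), a phosphatase of blood cells. H2-DMa was most like H2-DMb2 (0.916) and Cotl1 (0.903). H2-Aa and H2-Ab1 also had H2-DMb2 and Cd52 among their 5, and H2-Eb1 had Cd37 (0.770), a tetraspanin of B cells. Over differences within 78 strains H2-Ab1 was like Irf8 (0.923), a transcription factor of myeloid and B cells. Over strain means the highest value for H2-Ea was 0.450, with Rgl1. Its strain means form separate sets, so this value is not comparable with those of the other members.

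The members were set against marker scores of 4 cell types. In bulk tissue fewer cells of a type and less RNA per cell cannot be told apart. In all, 128 relations were computed, and 107 had an adjusted permutation p under 0.05 by Pearson correlation (113 by Spearman; two-sided, 100000 resamples, smallest possible p 1e-05). Pooled H2-Ea strain means were not used for these relations, since they form separate sets. Strains of a family are related, which the permutation did not take into account.

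Over 93 strain means the 5 other members correlated with the B cell score at 0.671 to 0.799, with the macrophage score at 0.508 to 0.636, with the dendritic cell score at 0.537 to 0.763 and with the thymocyte score at 0.398 to 0.569. All 20 adjusted permutation p-values were 0.000256 or less. Leaving out the 2 strains of most extreme score gave 0.655 to 0.793 for B cell and 0.480 to 0.617 for macrophage scores. Cd74 with the B cell score was at 0.799 (rho 0.816), with 0.784 and 0.819 within the lower and upper block of array numbers. The B cell score had the highest correlation for 4 of the 5 genes, while H2-DMa was closest to the dendritic cell score (0.763). Whether these correlations differ from each other was not tested. The lists also differ in brightness. The median level was 3.88 for the 9 dendritic cell genes, 4.44 for the 11 B cell genes and 6.33 for the 16 macrophage genes.

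Within families the B cell relation was highest in AXB/BXA (0.806 to 0.897, 28 strains) and BXD (0.727 to 0.891, 27 strains), and 0.573 to 0.703 in inbred strains (28). The macrophage relation ran from 0.499 to 0.735 in AXB/BXA, 0.427 to 0.664 in BXD and 0.482 to 0.620 in inbred strains. The dendritic cell relation ran from 0.511 to 0.722, 0.512 to 0.663 and 0.579 to 0.844 in the same families, the last reaching above the B cell range of inbred strains. Without the 2 strains of most extreme score, the macrophage relation fell to 0.287 to 0.500 in BXD. In BXH, with 10 strains, 3 of 5 B cell relations passed (H2-Aa, H2-DMa and Cd74), and without the 2 most extreme strains r fell to 0.258, 0.630 and 0.126. The macrophage relations in BXH ran from 0.137 to 0.544, and 0 of 5 passed by Pearson and 1 of 5 by Spearman. The thymocyte score correlated at 0.666 to 0.752 in AXB/BXA, where all 5 passed, and at -0.159 to 0.264 in BXD, where 0 of 5 passed by Pearson and 4 of 5 by Spearman. The difference between families was not tested.

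Between arrays that share a strain label, the same scores tracked the members. SJL/J, whose arrays disagreed over other genes, was among the strains used. Over 78 strains Cd74 correlated with the macrophage score at 0.712, the B cell score at 0.704, the dendritic cell score at 0.740 and the thymocyte score at 0.571. For H2-Ea the values were 0.472, 0.503, 0.337 and 0.302, over strains that include those with H2-Ea near the lowest array values, and are not comparable with those of Cd74. All 24 passed (adjusted permutation p of 0.00961 or less). Among the 17 BXD strains above the gap, H2-Ea correlated with the B cell score at 0.825 (adjusted permutation p = 4.2e-05, 0.743 without the 2 most extreme strains) and with the macrophage score at 0.259 (adjusted permutation p = 0.335). Spearman's rho was 0.801 and 0.282 (adjusted permutation p = 0.000354 and 0.290). In the same strains H2-Ea correlated with the dendritic cell score at 0.501 (adjusted permutation p = 0.0490). With the thymocyte score it correlated at 0.440 (adjusted permutation p = 0.0855). By Spearman the dendritic cell and thymocyte relations passed. These 17 strains were chosen by their H2-Ea level.

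Macrophage and B cell scores together accounted for 69.4% of the variance of Cd74 over 93 strain means, 61.3% of H2-DMa, 55.4% of H2-Aa, 49.9% of H2-Ab1 and 47.8% of H2-Eb1. For differences within strains the share was 63.8% for Cd74. A strain mean of few arrays also carries the spread between arrays, which for Cd74 exceeded that between strains (SD 0.76 against 0.52). The shares over strain means are therefore not of strain differences alone. With both scores as covariates, H2-DMa no longer differed between strains (adjusted p = 0.0627 in limma), Cd74 no longer among BXD strains (adjusted p = 0.116) and H2-Ab1 no longer among AXB/BXA strains (adjusted p = 0.232). The H2-Ea calls and the H2-Eb1 haplotype call were kept. With these covariates 7 of the 8 probe sets called in the strain test stayed called, and 5 of the 6 called among BXD strains. H2-Aa was one of those in BXD (adjusted p = 9.15e-05 in limma).

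**Figure D5:**
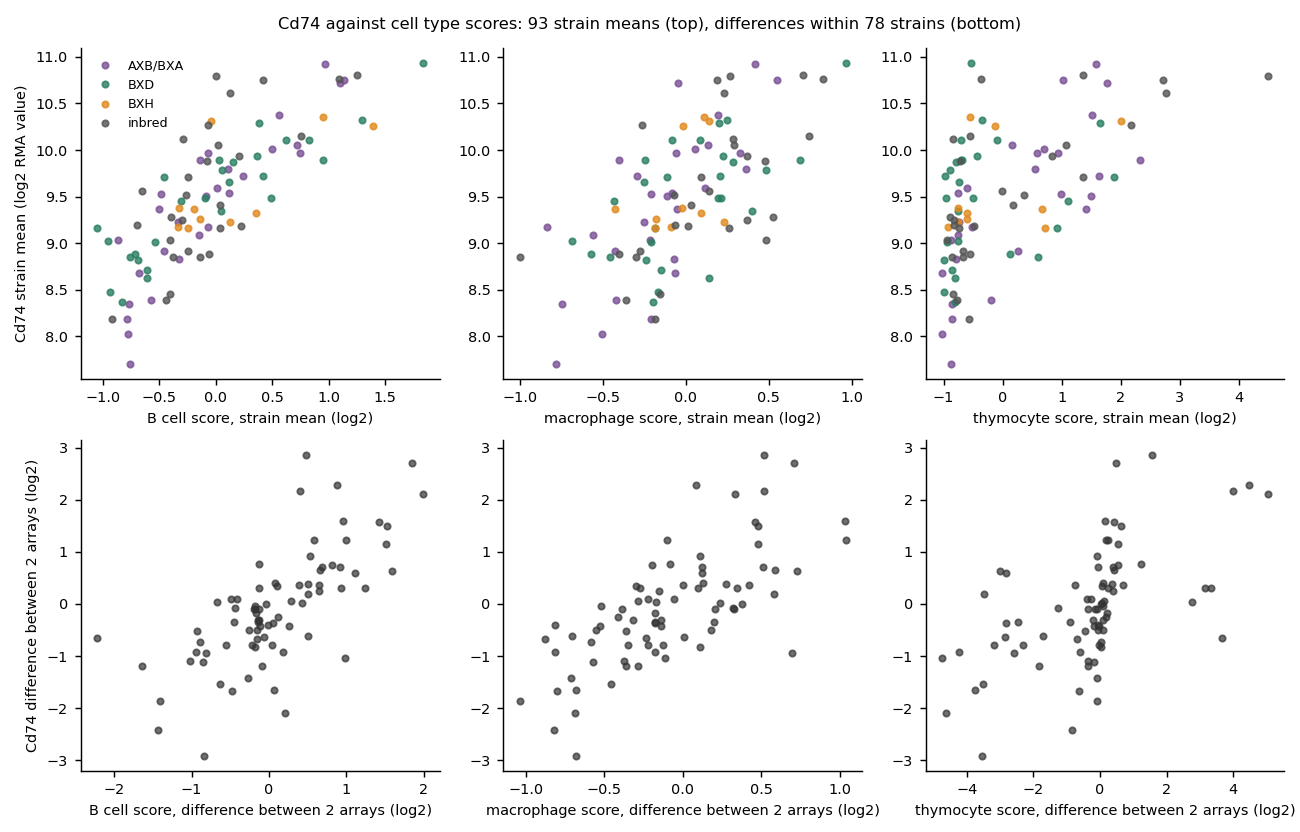
Cd74 level (log2 RMA value) against B cell, macrophage and thymocyte marker scores (mean centred log2 level) for 93 strain means by family (top) and for the difference between the 2 arrays of 78 strains (bottom). Correlations are 0.799 and 0.636 for the first 2 scores over strain means and 0.704 and 0.712 over differences within strains.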

How the data were processed

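The submitters' processing notes name GCOS and RMA, and the authors deposited log2 values, 1 table of 22416 probe sets by 188 arrays; array medians ran from 4.55 to 4.88. Here 89 control probe sets were left out, and probe sets were named from the platform annotation (17783 with 1 symbol, 284 with several, 4260 with none). Strain, taken from the labels, was the group. Fits used limma 3.58.1 in R 4.3.3 on all 22327 probe sets, with Benjamini-Hochberg adjustment and a threshold of 0.05; tested on simulated data, the BXD test recovered 98 of 100 probe sets changed by 2 (log2), with 10 false calls. Correlations used permutation in Python 3.11.15. A score is the mean centred log2 level of a list's measured genes, brightest probe set each. Named genes were all members, at most 4 genes of a list (by largest difference or share of variance among those that passed, or by level; Ciita, H2-DMb2 and the AXB/BXA calls were added after their values were seen), and the 5 genes most like each member. Members and lists were chosen with earlier results of these data known. H2 haplotypes came from general knowledge of the strains; I/LnJ, KK/HlJ and NON/ShiLtJ were left unclassified. The number of arrays limits the precision. Alternatives were array centring, bright probe sets only, array block, leaving out arrays and strains, and cell scores as covariates. Leaving out the 3 strains of discordant arrays or BXD20/TyJ, and the pairs of haplotypes, were chosen after seeing the data.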

Additional observations from a re-analysis of the deposited data

Results flagged for a closer look

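NON/ShiLtJ, which was in no haplotype comparison, had an H2-Ea level (probe set 1422892_s_at) of 8.84 from arrays at 8.86 and 8.81, above the highest strain of a null haplotype (5.19). Probe set 1425477_x_at of H2-Ab1 read 4.03 in AXB19b/PgnJ replicate 2 and 4.74, 4.67 and 4.68 in the other 3 arrays, a gap wide for a group of 4. The same array was the lowest of the 4 in H2-Ab1 probe set 1450648_s_at (7.94) and in Cd74 (9.25). It was 1 of 54 groups examined in this way, and chance alone marks about 1 in 20.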

How the results depend on the processing

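Counts are of the 9 member probe sets. In AXB/BXA the count of 1 became 2 with brighter probe sets only, 2 without BXA16/PgnJ, and 0 with the cell scores as covariates; leaving out single arrays gave 0 to 3. Without arrays high in thymocyte or squamous genes it was 0 in AXB/BXA and 1 in BXD, down from 6, with fewer arrays tested. In BXD single arrays left out gave 3 to 7. Where that left a strain with 1 array, the strain dropped out of the F test. C3H/HeJ against C57BL/6J gave 1 in place of 0 without the 3 strains of discordant arrays, an alternative chosen after seeing the data. The contrast of expressing with null haplotypes gave 2 with strain as a random block, a fit that shares 1 correlation over all probe sets. The strain count of 8 was 7 with brighter probe sets only, where the dim H2-Ab1 probe set is not tested, and with the cell scores as covariates. That of haplotypes b, d, k and q (3) was 2 without arrays high in thymocyte or squamous genes. That of DBA/2J was 1 under every alternative run. Of the 107 relations called, 67 were in the upper block of array numbers alone, where fewer strains enter. The correlation of H2-Eb1 with the thymocyte score in inbred strains turned from 0.420 to -0.0849 without the arrays high in those genes. Over all probe sets, those arrays left out changed the calls in A/J from 144 to 283, DBA/2J 117 to 186, C3H/HeJ 278 to 609, AXB/BXA 851 to 230 and BXD 3361 to 1181. Except where said, causes were not tested. No paired analysis was possible because replicate numbers were given in accession order and pair no arrays across strains.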

Other observations

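KK/HlJ and I/LnJ were in no haplotype comparison, and BXD32/TyJ was in no comparison. H2-Ea (probe set 1422892_s_at) read 2.98 and 3.39 in KK/HlJ and 3.73 in the single array of I/LnJ. H2-Eb1 was 9.86 and 8.65 in KK/HlJ and 8.58 in I/LnJ, above the level of the q strains. The BXD32/TyJ arrays read 3.40 and 3.16 for H2-Ea, 8.17 and 6.89 for H2-Aa, 9.30 and 7.86 for H2-Ab1, and 9.93 and 9.04 for Cd74.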
